A study of Mus musculus with 6 samples.

Results

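Mitochondria are kept as a network by fusion and fission, renewed by transcription and replication of their own DNA, cleared by mitophagy and supplied with proteins by import complexes in both membranes. The genes described here serve these processes: fusion, fission, mitophagy, biogenesis, cristae organisation, matrix chaperones and proteases, and the translocases of the inner (TIM) and outer (TOM) membrane. Of 44 listed genes, 40 were measured, among 22180 genes in all, each by 1 transcript cluster that the platform annotation pairs with exactly 1 symbol. Where a gene had several such clusters, the brightest one on average was taken. Bnip3l, Tomm5 and Tomm6 lie on clusters that carry several symbols, and Optn was not analysed here.

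RNA was measured in RET cells, a mouse melanoma line labelled as strain C57BL\6, in 3 cultures transduced with Angpt2 shRNA-1 and in 3 cultures transduced with a non-targeting shRNA. The titles of the control samples also carry the word GFP. Every culture was grown for 24 h in high-glucose medium with serum, and 100 ng of total RNA from each was hybridised to its own Affymetrix Mouse Gene 2.0 ST array. The product of Angpt2, angiopoietin-2, is secreted and binds the receptor Tie2 on endothelial cells, and the comparison asks what its silencing does to the tumour cells' own transcripts. There is 1 hairpin against Angpt2 and no rescue, so an effect of Angpt2 cannot be told apart from another effect of the hairpin or of the transduced cell population. Values are the authors' normalized intensities on a linear scale, without detection calls.

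Array medians were 74.5 to 75.9 in Angpt2 shRNA-1 cultures and 75.6 to 76.2 in control cultures. Correlations of log2 values were 0.988 to 0.990 among Angpt2 shRNA-1 arrays, 0.978 to 0.985 among control arrays and 0.982 to 0.989 between groups. The control arrays were thus less alike than the Angpt2 shRNA-1 arrays. Array weights fitted by limma were lowest for control replicates 1 and 2, at 0.551 and 0.703. The melanocyte markers were bright in both groups, with Pmel between 6623 and 7209.8 in Angpt2 shRNA-1 cultures and between 6546 and 7409.5 in control cultures. Summed over the 7 melanocyte markers, intensity was 35120.0 to 37626 in Angpt2 shRNA-1 cultures and 35852 to 38964 in control cultures. The 5 endothelial markers summed to 335 to 349.7 in Angpt2 shRNA-1 cultures and 308 to 336 in control cultures. The 5 macrophage markers summed to 387 to 403 in Angpt2 shRNA-1 cultures and 376 to 426 in control cultures, and the 5 fibroblast markers to 558 to 594 in Angpt2 shRNA-1 cultures and 528 to 554 in control cultures. Whether the low signal of these lists is above background could not be judged. Control replicate 1 stood apart from the other arrays in a set of stress genes, as described below. Angpt2 itself had intensities of 100.2, 122 and 122 on the Angpt2 shRNA-1 arrays and of 195, 372 and 326 on the control arrays. This 2.51-fold lower signal did not pass over all genes (limma adjusted p = 1.00), but it did with the replicate number as a block (adjusted p = 0.046) and without control replicate 1 (adjusted p = 0.0116).

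No mitochondrial gene of the list passed the test between the groups. By limma with Benjamini-Hochberg adjustment over all 22180 genes, 0 of 40 members passed an adjusted p of 0.05, and 0% of all genes did. At an unadjusted p under 0.05 there was 1 member, Fundc1, against 3.76% of all genes in either direction and 2.24% lower in Angpt2 shRNA-1 cultures. With the replicate number as a block 0 members passed after adjustment, against 0.00902% of all genes, and 2 members, Fundc1 and Tfam, had an unadjusted p under 0.05, against 4.58%. Positive and negative log2 fold changes (Angpt2 shRNA-1 over control) were nearly balanced, with 21 members above 0 and 19 below, and the median was 0.02. Over all genes 45.2% were positive and the median was -0.01. The median absolute log2 fold change was 0.07 both for the members and for all genes. In a bulk culture, a lower level per cell and fewer cells with the transcript cannot be told apart.

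**Figure D1:**
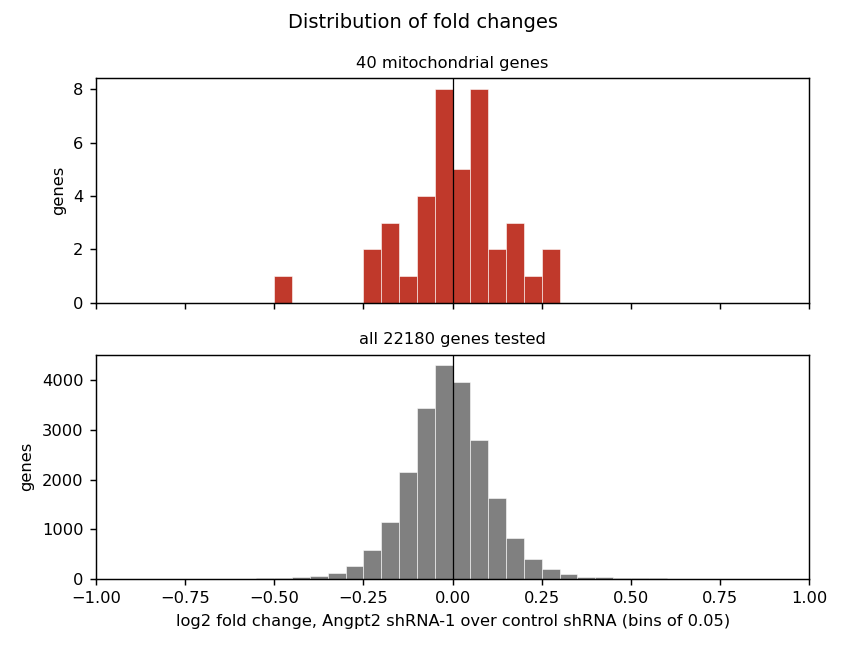
Number of genes (vertical axis) by log2 fold change of Angpt2 shRNA-1 over control shRNA (horizontal axis, bins of 0.05), for the 40 mitochondrial genes above and for all 22180 genes below. Of the 40 genes, 25 lie within 0.1 of 0, and the single bar at the left is Fundc1 at -0.46.

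The precision bounds, gene by gene, how large a change in signal could have been missed. Background correction is not given, so for dim genes a bound on the signal may not be a bound on the transcript. The 95% confidence interval reached 0.24 on the log2 scale to each side for the median member, which is 1.18-fold. All 40 intervals lay inside a 2-fold change in either direction, and 34 lay inside 1.5-fold, against 95.9% of all genes. The 6 members whose interval reached past 1.5-fold were Fundc1, Pink1, Tfam, Nrf1, Tfb2m and Lonp1. Inside 1.2-fold lay 12 of the 40 intervals, against 28.8% of all genes.

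**Figure D2:**
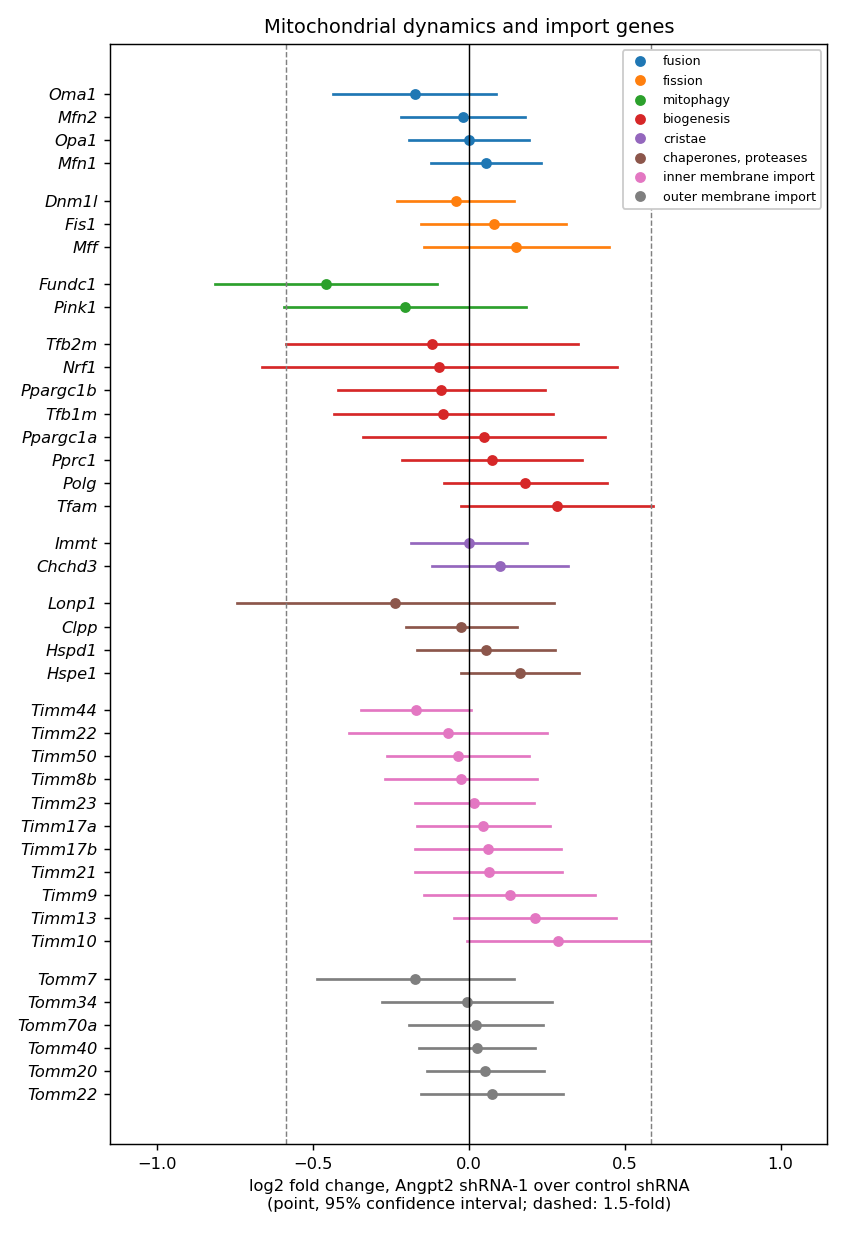
Log2 fold change of Angpt2 shRNA-1 over control shRNA for each of the 40 genes (points) with its 95% confidence interval from limma (lines), grouped and coloured by process, with dashed lines at 1.5-fold. The interval of Fundc1 is the only one that leaves out 0, from -0.82 to -0.10.

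In the fusion group, the mitofusins Mfn1 and Mfn2 join outer membranes, the dynamin-like GTPase Opa1 joins inner membranes, and the stress-activated protease Oma1 cleaves Opa1. Mfn1 had intensities of 639.6, 616 and 634 on the Angpt2 shRNA-1 arrays (replicates 1, 2 and 3) and of 592, 606 and 622 on the control arrays. The ranges of Mfn1 overlapped, since Angpt2 shRNA-1 replicate 2 lay below control replicate 3, and its log2 fold change was 0.05 (SE 0.08). Oma1 had the largest difference of the group, with 170.2, 169 and 198 in Angpt2 shRNA-1 cultures and 222, 174 and 213 in control cultures. Its log2 fold change was -0.17 (SE 0.12). The ranges overlapped through control replicate 2. Opa1 (771 to 849 in Angpt2 shRNA-1 cultures, 801 to 865 in control cultures) and Mfn2 (483 to 516 in Angpt2 shRNA-1 cultures, 468 to 542 in control cultures) were at -0.00 and -0.02. Their 95% intervals ran from -0.19 to 0.19 for Opa1 and from -0.22 to 0.18 for Mfn2.

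Fission is carried out by the GTPase Dnm1l, which the outer membrane proteins Mff and Fis1 bring to mitochondria. Mff had intensities of 966, 1002 and 1071 on the Angpt2 shRNA-1 arrays and of 989.7, 734 and 1039.6 on the control arrays. Control replicate 2 was the lowest of these by far, and the log2 fold change of 0.15 (SE 0.13) was -0.00 without that array. Fis1 was measured at 154, 155 and 187 in Angpt2 shRNA-1 cultures and at 146, 159 and 163 in control cultures, with overlapping ranges and a log2 fold change of 0.08 (SE 0.10), which was -0.01 without Angpt2 shRNA-1 replicate 3, its brightest array. Dnm1l, between 1742 and 1867 in Angpt2 shRNA-1 cultures and between 1781 and 1941 in control cultures, was at -0.04 (SE 0.08). The median log2 fold change was -0.01 for the 4 genes of the fusion group, Oma1 included, and 0.08 for the 3 fission genes. No gene of either group passed the test.

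The mitophagy genes measured were Pink1, a kinase that marks damaged mitochondria, and Fundc1, an outer membrane receptor that binds the autophagy protein LC3. Fundc1 (gene ID 72018, transcript cluster 17540420) had intensities of 90.8, 135 and 124 on the Angpt2 shRNA-1 arrays and of 142, 151 and 185 on the control arrays. All 3 Angpt2 shRNA-1 arrays lay below the 3 control arrays. On the log2 scale the levels were 6.85 ± 0.30 in Angpt2 shRNA-1 cultures and 7.30 ± 0.20 in control cultures (SD, n = 3 each), a log2 fold change of -0.46 (SE 0.16) or 1.38-fold lower, with limma adjusted p = 1.00 over all genes. By unadjusted limma p, 0.0170, it ranked number 231 of 22180 genes, and an exact permutation test (two-sided) gave p = 0.1, which is the lowest value possible with 3 arrays a group. Within replicate numbers 1, 2 and 3 the log2 difference was -0.64, -0.16 and -0.57. Without Angpt2 shRNA-1 replicate 1, the array with the lowest signal, the log2 fold change was -0.29. On that array the Fundc1 signal of 90.8 was near the median over genes, 88.3, and may not be above background.

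Pink1 was measured at 164, 148 and 115 in Angpt2 shRNA-1 cultures and at 206, 150.0 and 138 in control cultures. Its ranges overlapped, the log2 fold change was -0.20 (SE 0.17), and without control replicate 1 it was -0.03. Other mitophagy and autophagy-adaptor genes were read from a separate list. None of the 18 measured there passed the test, 4 were positive and 14 negative, and their median was -0.04. Over all genes 45.2% were positive and the median was -0.01. Of the 18 genes, 8 (44.4%) had their highest value on control replicate 1, against 25.8% of all genes. Sqstm1, the ubiquitin-binding adaptor p62, had the largest difference of that list at -0.17 (SE 0.14), with 3065, 2679 and 2569 in Angpt2 shRNA-1 cultures and 3913, 2863 and 2670.3 in control cultures. Without control replicate 1, its brightest array, it was at -0.00. The hypoxia-induced receptor Bnip3 was at -0.10 (SE 0.46). It had intensities of 206, 198 and 661 in Angpt2 shRNA-1 cultures and 326, 201 and 512 in control cultures, so that replicate 3 was high in both groups, as was the median of 7 hypoxia genes that include Bnip3 (median log2 deviation from each gene's mean of 0.58 on the Angpt2 shRNA-1 array and 0.22 on the control array). The part of that difference between cultures in the result was not tested.

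**Figure D3:**
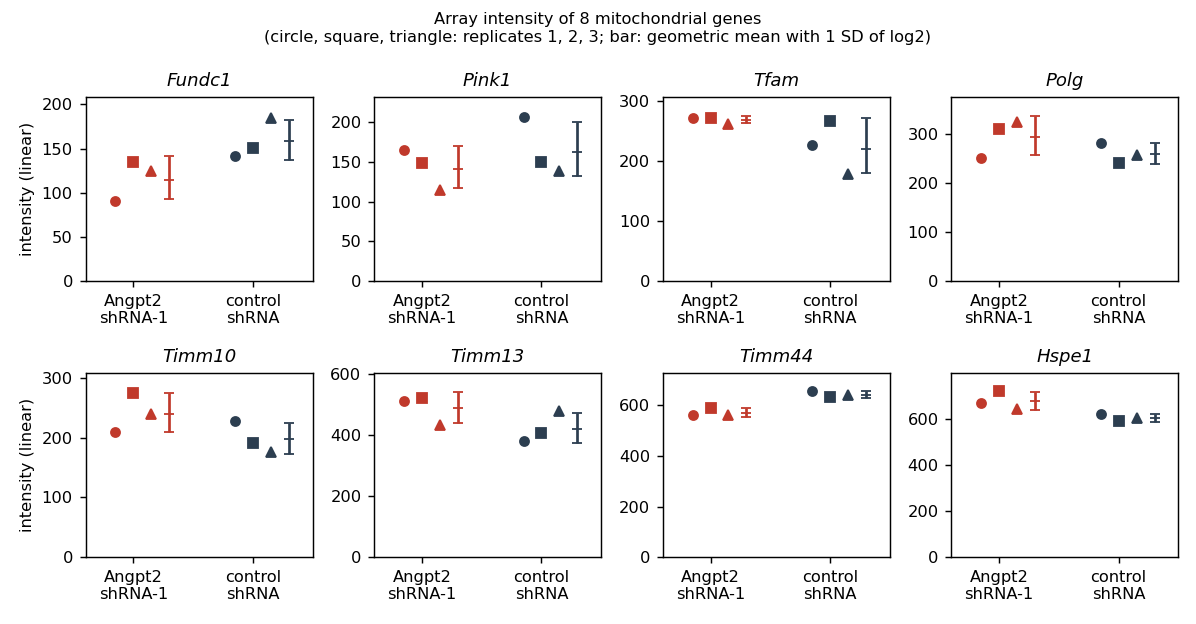
Linear array intensity (vertical axis, from 0) of 8 mitochondrial genes in Angpt2 shRNA-1 (left) and control shRNA (right) cultures; circles, squares and triangles are replicates 1, 2 and 3, and bars give the geometric mean with 1 SD of the log2 values, n = 3 each. Groups do not overlap for Fundc1 and Timm44 (lower in Angpt2 shRNA-1 cultures) and for Hspe1 (higher), and they overlap for Pink1, Tfam, Polg, Timm10 and Timm13.

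Biogenesis genes comprise the coactivators Ppargc1a (PGC-1 alpha), Ppargc1b and Pprc1, the transcription factor Nrf1, and Tfb1m. The others act on mitochondrial DNA: Tfam, which packages it and starts its transcription, the transcription factor Tfb2m, and the polymerase subunit Polg. The largest difference was that of Tfam, with intensities of 273, 272 and 262 on the Angpt2 shRNA-1 arrays and of 227, 268 and 178 on the control arrays. The Angpt2 shRNA-1 values of Tfam were tightly grouped, while control replicate 2 reached their range and control replicate 3 was low. Its log2 fold change was 0.28 (SE 0.14, 95% interval -0.03 to 0.59), and 0.13 without control replicate 3. Polg had 252, 310.4 and 326 in Angpt2 shRNA-1 cultures and 282, 240.3 and 258 in control cultures, a log2 fold change of 0.18 (SE 0.12) with overlapping ranges.

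The other biogenesis genes differed less between the groups than among the control arrays. Ppargc1a had intensities of 1395, 1410.0 and 1600.1 in Angpt2 shRNA-1 cultures and of 1927, 1271 and 1165 in control cultures. The log2 fold change of Ppargc1a was 0.05 (SE 0.17), between -0.09 and 0.27 when single arrays were left out. Nrf1 had the widest spread of all members, with 227, 212 and 321 in Angpt2 shRNA-1 cultures and 275, 180.3 and 379 in control cultures, and it was at -0.09 (SE 0.25). Tfb1m and Tfb2m were at -0.08 (SE 0.16) and -0.12 (SE 0.21), and 2 dimmer clusters of Tfb2m gave -0.03 and -0.04. Whether the brightest Tfb2m cluster measures Tfb2m is in doubt, as described below. Pprc1 was at 0.07 (SE 0.13) and Ppargc1b at -0.09 (SE 0.15). Of the 8 biogenesis genes 4 were positive and 4 negative, with a median of -0.02, which became 0.12 without control replicate 1.

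Further regulators and mitochondrial DNA factors, 21 measured genes, held 8 positive and 13 negative values with a median of -0.04, and 0 passed. Ppara, a nuclear receptor for fatty acids, had the largest difference, with 72.4, 72.8 and 67.8 in Angpt2 shRNA-1 cultures and 84.4, 89.4 and 91.5 in control cultures. Its ranges did not overlap, at a log2 fold change of -0.32 (SE 0.08, limma adjusted p = 1.00), but its signals lie near the array medians and may not be above background. Polrmt, the mitochondrial RNA polymerase that Tfam and Tfb2m serve, was at 0.29 (SE 0.14), with 332, 242 and 236 in Angpt2 shRNA-1 cultures and 224, 198 and 235 in control cultures. Without Angpt2 shRNA-1 replicate 1 it was at 0.13. It was picked with its values in view.

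The promoters of these genes show which words of known transcription factors they share. RefSeq promoter windows (GRCm38.p6, 250 bases before to 50 after an annotated start) were available for 37 of the 40 genes, 46 windows in all. Both strands were searched for 7 words that were chosen with the fold changes known, so the counts are a description. A word bound by GABP, a factor of the ETS family, is CCGGAAGT, and it was in 17.4% of the 46 windows and in 3.89% of all 32851 promoter windows. A word of the NRF1 site, TGCGCANGC, was in 13% and 4.16% of those windows. The median share of G and C was 59.3% in the 46 windows and 52.7% in all windows, and its part in these shares was not tested. The 40 bases around the first GABP word of each gene are shown, 5′ to 3′ on the gene's strand with the word in capitals, so that the genes can be read beside their fold changes.
Tfam, chr10:71238068-71238107, minus strand: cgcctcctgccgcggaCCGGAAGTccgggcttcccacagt
Timm10, chr2:84827021-84827060, plus strand: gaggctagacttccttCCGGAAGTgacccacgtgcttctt
Polg, chr7:79466288-79466327, minus strand: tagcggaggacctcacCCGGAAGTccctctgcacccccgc
Fis1, chr5:136953241-136953280, plus strand: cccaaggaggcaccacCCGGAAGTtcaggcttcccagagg
Mfn1, chr3:32529422-32529461, plus strand: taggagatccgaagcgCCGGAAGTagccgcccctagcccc
Tomm70a, chr16:57121618-57121657, plus strand: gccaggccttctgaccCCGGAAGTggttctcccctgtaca
Timm23, chr14:32201916-32201955, minus strand: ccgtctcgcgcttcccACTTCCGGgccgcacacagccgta

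In 6 of these 7 genes the word reads forward, and in Timm23 it is on the opposite strand. It begins 18 bases before the annotated start in Fis1, 38 in Polg, 44 in Mfn1, 47 in Tfam, 48 in Timm23 and 80 in Tomm70a, and at base 17 after the start in Timm10. The log2 fold changes of all 7 were above 0, from 0.02 in Timm23 to 0.29 in Timm10, with a median of 0.08, and none passed the test. Of the 30 members with a window and without this word, 13 were positive. In the separate lists of mitochondrial genes 6 of 17 genes with the word were positive. Of all 954 tested genes with it 47.1% were positive, against 45.2% of the 16036 with a window but without it. Gabpa and Gabpb1, subunits of GABP, were themselves at -0.04 (SE 0.09) and -0.07 (SE 0.13).

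The NRF1 word was in the windows of 6 members, each time on the strand opposite to the gene. They are shown in the same way because they join a fusion gene, a mitophagy gene, a cristae gene and import genes of both membranes.
Opa1, chr16:29579262-29579301, plus strand: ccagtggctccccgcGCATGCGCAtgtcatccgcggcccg
Pink1, chr4:138326280-138326319, minus strand: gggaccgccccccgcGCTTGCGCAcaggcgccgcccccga
Immt, chr6:71831308-71831347, plus strand: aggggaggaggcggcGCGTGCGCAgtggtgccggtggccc
Timm13, chr10:80901137-80901176, minus strand: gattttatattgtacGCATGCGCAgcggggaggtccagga
Timm8b, chr9:50603906-50603945, plus strand: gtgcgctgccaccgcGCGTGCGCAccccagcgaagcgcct
Tomm20, chr8:126945915-126945954, minus strand: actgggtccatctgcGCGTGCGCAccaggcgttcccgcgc
The log2 fold changes of these 6 genes ran from -0.20 in Pink1 to 0.21 in Timm13, 2 positive and 4 negative, with a median of -0.00. Over all 1065 tested genes with the word the median was -0.01. Of the other words, AAGATGGCG of YY1 was in Timm50 (1.4% of all windows) and TATAAA in Nrf1 and Timm13 (13.6%). TGATGNAA of ATF4 and TGACGTCA of CREB were in no member window and in 3.97% and 1.79% of all windows.

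Cristae organisation was represented by Immt and Chchd3, both core subunits of the complex that forms cristae junctions. Chchd3 had 1561, 1523 and 1721 on the Angpt2 shRNA-1 arrays and 1562, 1350.5 and 1575 on the control arrays. Its log2 fold change was 0.10 (SE 0.10), with overlapping ranges. Immt, with 1972, 1905 and 1837 in Angpt2 shRNA-1 cultures and 1814, 1911 and 1995 in control cultures, was at -0.00 (SE 0.08). Among 7 further cristae genes 3 were positive and 4 negative, 0 passed, and the largest difference was 0.29 (SE 0.22) for Apoo, another subunit of that complex, with 138 on control replicate 2 and 210.1 to 279.6 on the other arrays. Without control replicate 2 Apoo was at 0.01.

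Proteins that arrive in the matrix are folded by the chaperonin Hspd1 (Hsp60) and its co-chaperonin Hspe1 (Hsp10), and degraded by the proteases Lonp1 and Clpp. Hspe1 had intensities of 668, 719 and 643 on the Angpt2 shRNA-1 arrays and of 621, 588 and 602 on the control arrays. Every Angpt2 shRNA-1 value of Hspe1 lay above every control value, with a log2 fold change of 0.16 (SE 0.08, limma adjusted p = 1.00), that is 1.12-fold. Hspd1, measured at 3491, 3647 and 3465 in Angpt2 shRNA-1 cultures and at 3010.2, 3509.6 and 3723 in control cultures, was at 0.06 (SE 0.10). Clpp was even across the arrays, from 508 to 529 in Angpt2 shRNA-1 cultures and from 511 to 544 in control cultures, at -0.02 (SE 0.08).

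Hspd1 and Hspe1 start close together on opposite strands of chromosome 1. One of 2 annotated starts of Hspd1 is 216 bases from that of Hspe1, so that 285 bases of these windows are the same DNA. The window of the other Hspd1 start (chr1:55088194-55088493, minus strand) does not hold the pattern described next. The window of Hspe1 is shown because it holds the stretch that both chaperonin genes share. Capitals mark a pair of heat shock units, TTCNNGAA, with 2 bases between them, a pattern looked for after this sequence had been read. The pair begins 89 bases before the start of Hspe1. It was in 5 of all 32851 windows (0.0152%), among them those of Hspe1 and of the first Hspd1 start, while the single unit was in 9 members and in 8.52% of all windows.
Hspe1, chr1:55087898-55088197, plus strand: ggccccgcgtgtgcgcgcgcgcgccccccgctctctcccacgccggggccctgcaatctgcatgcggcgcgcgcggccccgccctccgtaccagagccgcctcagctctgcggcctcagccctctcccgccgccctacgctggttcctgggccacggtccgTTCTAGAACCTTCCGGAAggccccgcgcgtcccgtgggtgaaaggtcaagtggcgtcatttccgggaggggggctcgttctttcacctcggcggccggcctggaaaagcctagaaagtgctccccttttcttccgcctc
The genes of this pair did not rank the arrays alike. Hspd1 had its lowest value on control replicate 1 and its highest on control replicate 3. For Hspe1 the extremes were control replicate 2, the lowest, and Angpt2 shRNA-1 replicate 2.

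Lonp1, the matrix protease that also binds mitochondrial DNA, had intensities of 815, 823 and 1042 on the Angpt2 shRNA-1 arrays and of 1554, 777 and 943 on the control arrays. The value on control replicate 1 was 1.89 times the median of the other 5 arrays. Its log2 fold change was -0.24 (SE 0.23) with that array and 0.05 without it. Of 10 further chaperone and protease genes 5 were positive and 5 negative and 0 passed. The chaperone Trap1 had the largest difference of these, at 0.16 (SE 0.11), with 741 to 884 in Angpt2 shRNA-1 cultures and 639 to 792 in control cultures, and at 0.06 without control replicate 2.

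Control replicate 1 was also the array on which several other members were farthest from the rest. On it, 7 of 40 members were above 1.2 times the median of the other 5 arrays, against 10.3% of all genes. They were Lonp1, Tfb2m (1.73 times), Pink1 (1.39), Tfb1m (1.39), Ppargc1a (1.38), Oma1 (1.28) and Nrf1 (1.21). Of these, Nrf1 alone lay within its range on the other 5 arrays. Below 0.8 times that median were 3 members, against 5.18% of all genes: Pprc1 (0.754), Ppargc1b (0.784) and Timm13 (0.795). These limits were chosen after the values were seen, and the counts were made for this array only. The coactivators thus went apart on that array, with Ppargc1a at its highest value and both Pprc1 and Ppargc1b at their lowest. Ppargc1b had 106 there, where the median over genes was 90.0, and 113 to 161 on the other 5 arrays. Its signal may not be above background. Without that array the log2 fold changes were 0.27 for Ppargc1a, 0.16 for Tfb2m and 0.08 for Tfb1m. The Tfb2m values are those of its brightest cluster, 17280923. That number lies between those of Inf2 (17279324) and Egln3 (17281084), which are on chromosome 12, while Tfb2m is on chromosome 1. Of the Tfb2m clusters, only the dimmest, 17230331, has a number among those of chromosome 1 genes. Whether the brightest cluster measures Tfb2m could therefore not be judged. Its dimmer clusters ranged from 72.6 to 85.4 and from 98.4 to 114.8 on the other 5 arrays. They had 71.5 and 107 on control replicate 1. Among genes of the separate lists, the matrix chaperone Hspa9 (mortalin) had 4839.5 there and 3321 to 3585 on the other 5 arrays, and Chchd10 had 3464 there and 1437 to 2169.8 elsewhere. Both genes were picked with their values in view.

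The same array carried the strongest signal of the integrated stress response, the programme of Atf4. The median log2 deviation of 8 of its genes from each gene's own mean was 0.06, -0.54 and 0.25 on Angpt2 shRNA-1 replicates 1, 2 and 3 and 1.37, -0.80 and -0.13 on control replicates 1, 2 and 3. Atf5, a factor linked to the mitochondrial unfolded protein response, had 266, 192 and 254 in Angpt2 shRNA-1 cultures and 825, 207 and 214 in control cultures. Ddit3 (CHOP), a further factor of that programme, had 280.3, 227 and 424 in Angpt2 shRNA-1 cultures and 1108, 205 and 345 in control cultures. Of the chaperonin genes, Hspd1 was at its lowest on that array and Hspe1 lay within its range on the other arrays. Whether the stress signal has a part in the values of Lonp1, Tfb1m, Tfb2m and Ppargc1a was not tested.

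**Figure D4:**
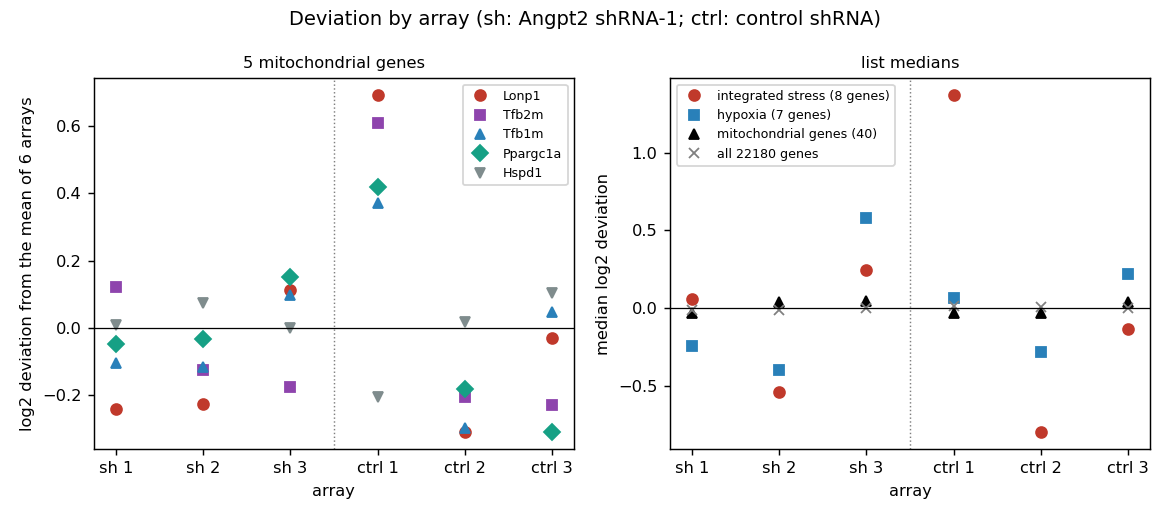
Log2 deviation from the mean of the 6 arrays (vertical axes) by array (horizontal axes, Angpt2 shRNA-1 left of control), for 5 mitochondrial genes at the left and as medians of 4 gene lists at the right. Control replicate 1 holds the highest values of Lonp1, Tfb2m (brightest cluster, locus in doubt), Tfb1m and Ppargc1a, and the lowest of Hspd1. Its median for the 8 integrated stress genes is 1.37. The median of the 40 mitochondrial genes stays between -0.03 and 0.05 on every array.

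Import through the inner membrane was measured with 11 genes, 7 positive and 4 negative, at a median of 0.05. The small Tim proteins escort hydrophobic precursors across the intermembrane space, Timm9 with Timm10 and Timm8b with Timm13. Timm10 had intensities of 210.1, 275 and 239 on the Angpt2 shRNA-1 arrays and of 228, 191 and 176 on the control arrays. Its log2 fold change was 0.29 (SE 0.13, 95% interval -0.01 to 0.58), the highest of the 40 genes, and the ranges overlapped because Angpt2 shRNA-1 replicate 1 lay below control replicate 1. Its partner Timm9, between 290.2 and 364 in Angpt2 shRNA-1 cultures and between 254 and 325 in control cultures, was at 0.13 (SE 0.12). Timm13 had 514, 523 and 434 in Angpt2 shRNA-1 cultures and 382, 409 and 481 in control cultures, a log2 fold change of 0.21 (SE 0.12) with overlapping ranges. Its partner Timm8b was at -0.02 (SE 0.11).

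The TIM23 complex carries precursors into the matrix, with Timm23 and Timm17a or Timm17b as its channel, Timm50 as receptor, Timm21 as a link to the outer membrane and Timm44 as the anchor of the import motor. Timm44 had intensities of 560.4, 591 and 563 on the Angpt2 shRNA-1 arrays and of 657, 631 and 639.5 on the control arrays, and the groups did not overlap. The log2 levels were 9.16 ± 0.04 in Angpt2 shRNA-1 cultures and 9.33 ± 0.03 in control cultures (SD, n = 3 each), a log2 fold change of -0.17 (SE 0.08, limma adjusted p = 1.00), or 1.12-fold lower. Leaving out single arrays kept it between -0.19 and -0.15. The other 5 genes of the complex lay between -0.03 (Timm50) and 0.06 (Timm21 and Timm17b). Timm23 was among the steadiest, with 2649 to 2804 in Angpt2 shRNA-1 cultures and 2514 to 2826 in control cultures. Timm22, the channel for carrier proteins, was at -0.07 (SE 0.14).

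At the outer membrane, Tomm40 forms the entry pore, Tomm20, Tomm22 and Tomm70a are receptors, Tomm7 is a small subunit of the pore complex, and Tomm34 is a cytosolic co-chaperone of precursors. Tomm7 had the largest difference, with 262, 268 and 368 on the Angpt2 shRNA-1 arrays and 332, 303 and 366 on the control arrays. Angpt2 shRNA-1 replicate 3 was as high as control replicate 3 while replicates 1 and 2 were the lowest of the 6, and the log2 fold change was -0.17 (SE 0.14), or -0.33 without that replicate 3 array. Tomm22 was measured at 1112, 1241 and 1146 in Angpt2 shRNA-1 cultures and at 1034, 1046 and 1249.9 in control cultures, with overlapping ranges and a log2 fold change of 0.08 (SE 0.10). Tomm20 had 1049.8, 1121 and 1115 in Angpt2 shRNA-1 cultures and 1022, 1119 and 1028 in control cultures, again overlapping, at 0.05 (SE 0.08). Tomm40 (0.03, SE 0.08), Tomm70a (0.02, SE 0.10) and Tomm34 (-0.01, SE 0.12) lay closer to 0. The median of the 6 genes was 0.02, with 4 positive. On control replicate 1, 4 of these 6 genes had their lowest value, as did 15 of the 40 members (37.5%) and 19.5% of all genes.

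Of 20 further import genes 10 were positive and 10 negative, and 0 passed. Mtx1, metaxin 1, which belongs to the outer membrane assembly machinery, had the largest difference of all the additional mitochondrial genes. Its intensities were 420.0, 443 and 429.7 on the Angpt2 shRNA-1 arrays and 297, 297 and 369 on the control arrays, and the groups did not overlap. The log2 fold change was 0.43 (SE 0.10), or 1.35-fold higher, ranking number 29 of 22180 genes by unadjusted limma p (0.00234), with adjusted p = 1.00. Genes of fusion and fission from the separate list, 13 measured, were led by Mief2, an adaptor of Dnm1l, at -0.16 (SE 0.09), with 105 to 119 in Angpt2 shRNA-1 cultures and 121 to 128 in control cultures. Of these 13, 5 were positive and 8 negative and 0 passed. Over all 89 additional genes, 35 were positive (39.3%, against 45.2% of all genes) and 54 negative, with a median of -0.03. Of the 89, 0 passed, and 2 had an unadjusted limma p under 0.05, Mtx1 and Ppara.

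**Figure D5:**
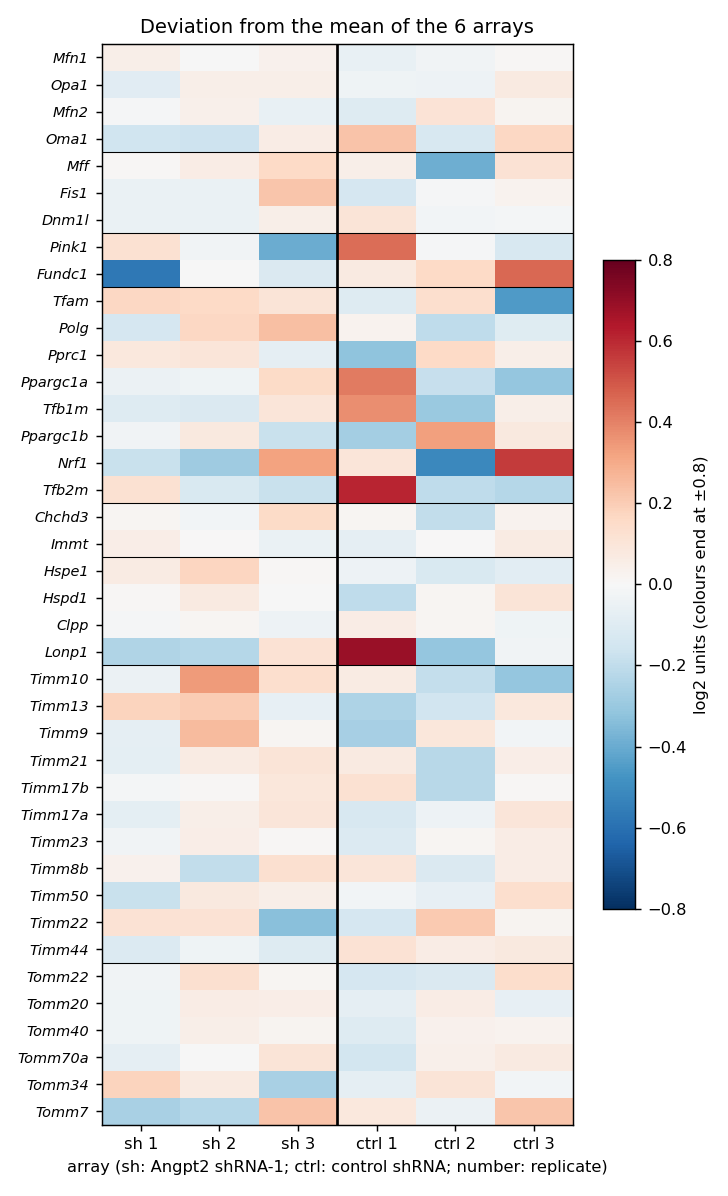
Log2 deviation of each of the 40 genes (rows, grouped by process) from its mean over the 6 arrays (columns, Angpt2 shRNA-1 left of the vertical line, control right of it), red for higher and blue for lower, with colours ending at ±0.8. The strongest colours sit on single arrays, such as Lonp1 and Tfb2m (brightest cluster, locus in doubt) on control replicate 1. In 3 rows (Hspe1, Fundc1 and Timm44) the groups do not overlap.

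Groups that did not overlap were found for 3 of 40 members (7.50%), Hspe1 higher and Fundc1 and Timm44 lower, against 9.01% of all genes, 3.53% higher and 5.48% lower. The difference kept its sign in replicate numbers 1, 2 and 3 for 9 members, 5 positive (Mfn1, Tfam, Hspe1, Timm9 and Tomm20) and 4 negative (Oma1, Pink1, Fundc1 and Timm44), which is 22.5%, against 25.1% of all genes. Both shares of the members were near those of all genes. The spread within groups was widest in the pair of mitophagy genes, with a median SD of 0.27 on the log2 scale, and was 0.24 in the biogenesis genes, 0.13 in the TIM genes, 0.11 in the TOM genes and 0.08 in the fusion genes, against 0.14 over the 40 members and 0.12 over all genes. Subgroup medians of the log2 fold change ran from -0.33 in the pair of mitophagy genes to 0.08 in the fission genes. Leaving mitophagy aside, the medians of the other 7 subgroups lay between -0.02 and 0.08.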

How the data were processed

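The deposited table holds 1 intensity per transcript cluster and array, on a linear scale as read from the values (28.1 to 12624), normalized by the authors. Background correction, probe summarization and normalization are not given in the sources used here. Of 41345 clusters, 40425 had a value on all 6 arrays, 23521 had 1 symbol, 1814 several, and 16010 were unnamed here.

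Log2 intensities of 22180 genes, without a pseudocount or further normalization, went into limma 3.58.1 (lmFit and eBayes, R 4.3.3). Its two-sided p-values were adjusted by Benjamini and Hochberg over these genes, with a threshold of 0.05. The number of arrays limits the precision. Medians over genes are descriptions. The fit was tested on simulated data with independent noise and with changes larger than that of any member. That test does not address changes as small as those of the members. The members, lists and tests were chosen with earlier results of these data known.

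The labels describe biological replicates numbered 1 to 3 in both groups. Deviations from group means correlated at 0.13, 0.21 and 0.14 between same-numbered arrays and at -0.19 to 0.06 between arrays of unlike number. The deviations of a group cancel over its arrays, so the values between unlike numbers are not independent of those between same-numbered arrays. A fit blocked on the replicate number was run beside the main fit, which has no block. This pairing was taken from the data and not from the labels. Other alternatives were quantile normalization, median centring, genes above the median level, a pseudocount of 16, the mean of all clusters, trend and robust eBayes, array weights, and leaving out each array.

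Every measured member is named. Per-array values were given at least for up to 2 members per process (up to 3 for TIM and TOM) with the largest differences and for members whose groups did not overlap. For each additional list the largest difference was named.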

Additional observations from a re-analysis of the deposited data

How the results depend on the processing

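In all 14 alternatives 0 members were called, and the lowest adjusted p of any member was 0.852. The count over all genes, 0 here, was 2 with the replicate number as a block (Angpt2 and Pld4, each at adjusted p = 0.046), 1 with trend and robust eBayes (Pld4), and 0 to 2 with single arrays left out (Angpt2 without control replicate 1, Btbd35f12 and Plekho1 without control replicate 2). Angpt2 was called with the block (log2 fold change -1.33, adjusted p = 0.046), and it ranged from -1.61 to -1.14 with single arrays left out and was called without control replicate 1 alone. The block changed the call of no member. With single arrays left out, the median of all members ranged from -0.00 to 0.05, that of the fusion genes from -0.05 to 0.01, fission -0.013 to 0.13, mitophagy -0.41 to -0.29, biogenesis -0.018 to 0.12, TIM 0.02 to 0.08 and TOM -0.03 to 0.06. The fission median of -0.013 came without Angpt2 shRNA-1 replicate 3, and the biogenesis median of 0.12 without control replicate 1. The cause was not tested. At an unadjusted p under 0.05 there were 1 to 3 members, and 835 genes here, 330 among genes above the median level only, where fewer genes were tested, and 587 to 1275 with single arrays left out, the highest without control replicate 3. Of the members 21 were positive here, 23 after quantile normalization or median centring, and 19 without control replicate 1 to 24 without control replicate 3. The sign of 23 of 40 members turned in some alternative, for 18 of them with an array left out only. Of the 14 members at least 1 SE from 0, 2 turned, Mff without control replicate 2 and Lonp1 without control replicate 1. All 40 members lay above the median level, so the filter on dim genes removed none.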
